A study of Mus musculus with 6 samples.

Results

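The 37 listed genes of the Fanconi anaemia pathway and homologous recombination repair were followed on expression arrays of sorted embryonic mouse cardiomyocytes with and without Yap. They were found by gene symbol among the probe sets that the platform annotation pairs with 1 gene, and 35 of the 37 had such a probe set, out of 19938 genes in all. Xrcc2 and Rbbp8 were not analysed here. For the 2 members with several probe sets, Bard1 and Nbn, the one brightest on average across all 6 arrays stood for the gene. The list was drawn up with earlier results of the same comparison known, so counts over it are a description and no test was made of the list as a whole. Of the 6 arrays, 3 came from Yap knockout hearts (Yap KO) and 3 from Yap heterozygous hearts (Yap HET), described as biological replicates. Embryos of both groups were at E12.5 and carried TNTCre, a Cre recombinase driven by the cardiac troponin T promoter, a floxed Yap gene, and the R26 mTmG reporter, which turns a cell green where Cre has acted. Hearts were digested singly and the green cells were sorted. The Yap HET cells thus carried the same Cre and reporter and are heterozygous, not wild type, and it is not known from the labels if an array held RNA pooled from more than a single heart.

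The Fanconi pathway repairs DNA strands that are covalently linked to each other. A core complex of FANC proteins attaches ubiquitin to the pair FANCI and FANCD2, which then bring nucleases to the stalled replication fork. The break that results is mended by homologous recombination: the ends are trimmed, BRCA1, PALB2 and BRCA2 prepare the trimmed strand for pairing with an intact copy, and helicases and nucleases take the joined molecules apart. The kinases ATM and ATR with their targets CHEK2 and CHEK1 signal such damage to the cell cycle. Many of these genes are transcribed mainly in S phase, and cardiomyocytes at this stage are still dividing.

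The values were probe set intensities on a linear scale, analysed as log2 values. Each log2 change is the Yap KO mean minus the Yap HET mean, followed by its standard error (SE), and a group mean is followed by the SD of its 3 arrays. The adjusted p-values are limma's, corrected by the Benjamini-Hochberg method across the 13632 genes tested. A gene was called lower or higher where that p was under 0.05. Correlations between arrays over the genes tested, which are not independent replicates, were 0.992 to 0.996 within a group and 0.984 to 0.991 across groups. Yap1 itself had an intensity of 91.5 ± 10.3 in Yap KO cells and 895 ± 28.9 in Yap HET cells. All 13 cardiomyocyte markers lay above the filter on dim probe sets and 0 of them were called by limma. The smooth muscle, blood, leukocyte and neural lists also had 0 called, with only 4, 3, 3 and 2 markers above the filter. In the endothelial, mesenchymal and epicardial lists, 2, 3 and 1 markers were called higher, as given further below. Precision is limited by having 3 arrays a group.

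Of the 35 members, all above the filter, 9 were lower in Yap KO cells and 0 were higher (limma, adjusted p under 0.05). That is 25.7% lower, against 4.76% of all genes tested that were lower and 5.16% that were higher. At an unadjusted limma p under 0.05, 14 members were lower and 0 higher, and of all genes tested 14.4% were lower and 13.9% higher at that cut-off. The 3 Yap KO arrays lay below all 3 Yap HET arrays for 16 members, a pattern seen for 17.2% of all genes tested, and above them for 0 members, against 16.7% of all genes tested. The other 19 members overlapped between the groups. The median log2 change of the members was -0.15, beside -0.02 over all genes tested, and single members ranged from -0.57 to 0.05. The 9 called members were 1.25-fold to 1.48-fold lower. In bulk samples such as these, fewer cells of a type or cycle phase and less RNA per cell cannot be told apart.

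**Figure D1:**
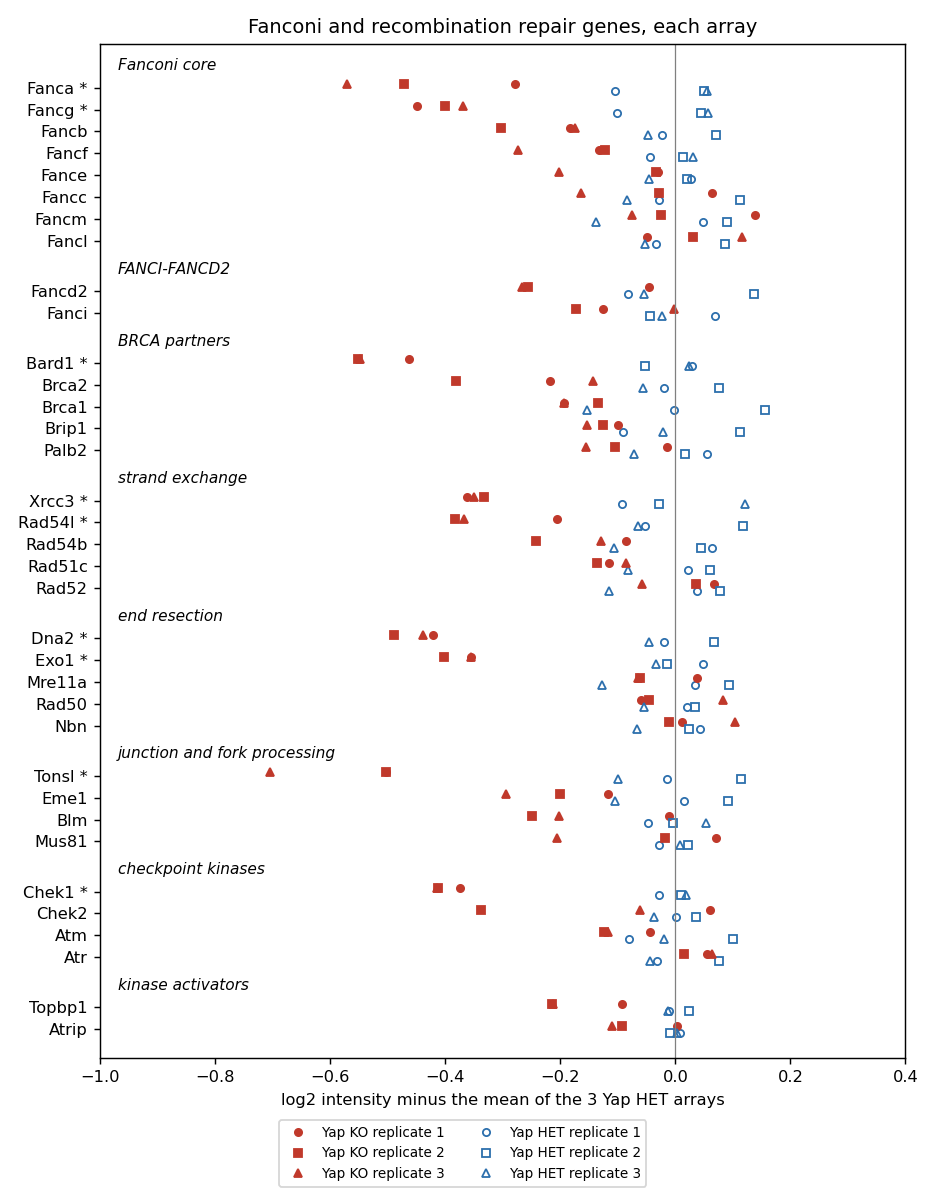
Each of the 35 members on each array, as log2 intensity minus the mean of the 3 Yap HET arrays (x axis). Rows are genes grouped by role, filled red symbols are Yap KO arrays, open blue symbols are Yap HET arrays, and an asterisk marks the 9 members called lower. The asterisked genes have all Yap KO symbols left of all Yap HET symbols, while Fancl, Fancm, Rad52, Rad50, Nbn and Atr lie around 0.

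In the core complex, which adds ubiquitin to FANCI and FANCD2, 2 of 8 genes were lower. Fanca and Fancg encode a pair of core subunits that bind each other. Fancg read 176, 182 and 186 on the Yap KO arrays, against 224, 248 and 250 on the Yap HET arrays. The groups did not overlap, and the log2 change of -0.40 ± 0.06 passed the test (limma adjusted p = 0.0081). Fanca read 257, 225 and 210 in Yap KO cells, against 290, 323 and 324 in Yap HET cells, again without overlap. Its log2 change was -0.44 ± 0.08 (limma adjusted p = 0.020). The call on Fanca was lost when Yap KO replicate 2 (limma adjusted p = 0.084), Yap KO replicate 3 (0.059) or Yap HET replicate 3 (0.062) was left out, and with no filter on dim probe sets (0.060).

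Fancb, which encodes a subunit that works beside the ubiquitin ligase FANCL, read 162, 149 and 163 in Yap KO cells, against 181, 193 and 178 in Yap HET cells. Fancf, an adaptor subunit, read 281, 283 and 255 in Yap KO cells, against 299, 311 and 315 in Yap HET cells. Neither gene overlapped between the groups, and neither passed the test. Fancb had a log2 change of -0.22 ± 0.06 with a limma adjusted p of 0.059, and Fancf one of -0.18 ± 0.06 with a limma adjusted p of 0.098. Fancl, the ligase subunit itself, had 377 ± 21.2 in Yap KO cells and 369 ± 19.6 in Yap HET cells. Fancm, a DNA translocase that brings the complex to chromatin, had 301 ± 23.5 in Yap KO cells and 297 ± 24.1 in Yap HET cells. Fancc and Fance, 2 further subunits, had log2 changes of -0.04 ± 0.08 and -0.09 ± 0.06. These 4 genes overlapped between the groups, with limma adjusted p-values from 0.39 to 0.92.

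The substrates of the complex did not pass the test. Fancd2 read 325, 281 and 279 in Yap KO cells, against 317, 369 and 323 in Yap HET cells. Its Yap KO replicate 1 lay within the Yap HET values, and the log2 change was -0.19 ± 0.08 (limma adjusted p = 0.19). Fanci read 312, 302 and 340 in Yap KO cells, against 357, 330 and 335 in Yap HET cells, with overlap and a log2 change of -0.10 ± 0.06 (limma adjusted p = 0.34).

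Among BRCA1, BRCA2 and their partners, 1 of 5 genes was lower. Bard1, which encodes the RING partner that BRCA1 needs to act as a ubiquitin ligase, had the smallest p-value of all members on the probe set used. It read 334, 314 and 315 in Yap KO cells, against 470, 444 and 468 in Yap HET cells, and the groups were far apart. The log2 change was -0.52 ± 0.05 (limma adjusted p = 0.0024). The 3 Bard1 probe sets disagreed in size. A second one read 354, 315 and 356 in Yap KO cells, against 373, 434 and 381 in Yap HET cells, without overlap. The probe set used was brighter than this one only on the Yap HET arrays. Its choice thus rested on the group where it was high, which favours the larger fall. The dimmest one read 129, 111 and 122 in Yap KO cells, against 126, 138 and 122 in Yap HET cells, and the groups overlapped. With the mean of the 3 probe sets the log2 change of Bard1 was -0.28 (limma adjusted p = 0.029).

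Brca2, which acts on the single-stranded DNA that trimming exposes, read 318, 284 and 335 in Yap KO cells, against 365, 390 and 356 in Yap HET cells. The arrays did not overlap, but the log2 change of -0.25 ± 0.07 missed the threshold (limma adjusted p = 0.072). It was the largest change among the members that were not called. Brca1 read 211, 220 and 211 in Yap KO cells, against 241, 269 and 217 in Yap HET cells. Its groups overlapped, and the log2 change was -0.17 ± 0.08 (limma adjusted p = 0.20). Brip1, a helicase that binds BRCA1, had a log2 change of -0.12 ± 0.06 without overlap, and Palb2, which joins BRCA1 to BRCA2, had -0.10 ± 0.06 with overlap (limma adjusted p = 0.24 and 0.33).

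Of the 5 measured genes of strand exchange, the step that pairs the broken end with an intact copy, 2 were lower. Xrcc3, which acts in homologous recombination, read 238, 243 and 240 in Yap KO cells, against 287, 300 and 333 in Yap HET cells. The Yap KO arrays were nearly alike and all lay below the Yap HET arrays, with a log2 change of -0.35 ± 0.06 (limma adjusted p = 0.018). Rad54l, a motor protein that helps the broken end to invade the matching strand, read 302, 267 and 270 in Yap KO cells, against 336, 378 and 333 in Yap HET cells. These groups did not overlap either, and the log2 change was -0.32 ± 0.07 (limma adjusted p = 0.035). Leaving out the second or the third Yap KO array ended the calls on Xrcc3 (limma adjusted p = 0.067 and 0.057) and Rad54l (0.13 and 0.11). Leaving out Yap HET replicate 1 (0.088), 2 (0.057) or 3 (0.059) also ended that on Rad54l. With no filter both calls were lost (0.056 for Xrcc3 and 0.091 for Rad54l), and with median centring that on Rad54l was (0.071).

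Rad54b, related to Rad54l, had 194 ± 10.4 in Yap KO cells and 216 ± 13.5 in Yap HET cells (log2 change -0.15 ± 0.07). Rad51c, which encodes a partner of XRCC3, had 432 ± 7.56 in Yap KO cells and 468 ± 23.9 in Yap HET cells (log2 change -0.11 ± 0.06). Neither passed the test (limma adjusted p = 0.18 and 0.22). Rad52, a strand-annealing protein, had 486 ± 21.9 in Yap KO cells and 482 ± 33.6 in Yap HET cells, a log2 change of 0.01 with a 95% interval from -0.14 to 0.17.

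Of the 5 measured genes that trim broken ends, 2 were lower. Exo1 and Dna2 encode the nucleases of long-range resection, and both were lower. Dna2 read 588, 561 and 581 in Yap KO cells, against 777, 825 and 763 in Yap HET cells. Exo1 read 284, 275 and 284 in Yap KO cells, against 376, 360 and 355 in Yap HET cells. In both genes the highest Yap KO array was well under the lowest Yap HET array. The log2 changes were -0.45 ± 0.05 for Dna2 (limma adjusted p = 0.0037) and -0.37 ± 0.05 for Exo1 (limma adjusted p = 0.0055). DNA2 also processes fragments of the lagging strand in replication.

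Mre11a, Rad50 and Nbn encode the complex that binds a break first and starts the trimming, and all 3 overlapped between the groups. Rad50 read 522, 527 and 576 in Yap KO cells, against 552, 557 and 524 in Yap HET cells. The log2 change was -0.01, with a 95% interval from -0.14 to 0.13. Mre11a had a log2 change of -0.03 (95% interval -0.19 to 0.13) and Nbn of 0.03 (95% interval -0.10 to 0.17). A dimmer second probe set of Nbn read 191, 221 and 240 in Yap KO cells, against 260, 193 and 291 in Yap HET cells, also with overlap. The intervals of Dna2 (-0.57 to -0.33) and Exo1 (-0.49 to -0.26) lay below all 3 of these, although the difference between genes was not itself tested.

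Among genes that act on forks and joined molecules, 1 of 4 was lower. Tonsl, a scaffold that recognises newly made chromatin and acts at stalled forks, had the largest change of all members. It read 161, 161 and 140 in Yap KO cells, against 226, 247 and 213 in Yap HET cells. No array of one group reached the other, and the log2 change was -0.57 ± 0.08, a 1.48-fold lower level (limma adjusted p = 0.0063). Eme1 and Mus81 encode the subunits of a nuclease that cuts joined molecules. Eme1 read 251, 237 and 222 in Yap KO cells, against 275, 290 and 253 in Yap HET cells, without overlap (log2 change -0.20 ± 0.07, limma adjusted p = 0.11). Mus81 had 525 ± 50.6 in Yap KO cells and 542 ± 10.3 in Yap HET cells. Blm, the helicase mutated in Bloom syndrome, read 701, 594 and 614 in Yap KO cells, against 683, 704 and 733 in Yap HET cells. Its Yap KO replicate 1 lay among the Yap HET arrays, and the gene did not pass the test (log2 change -0.15 ± 0.07, limma adjusted p = 0.21).

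Of the 4 checkpoint kinase genes, Chek1 was lower. CHEK1 is the kinase that ATR activates when replication stalls. It read 546, 532 and 531 in Yap KO cells, against 694, 713 and 717 in Yap HET cells, with little spread in either group. The log2 change was -0.40 ± 0.05, a 1.32-fold lower level (limma adjusted p = 0.0037). Atr read 359, 349 and 361 in Yap KO cells, against 338, 364 and 335 in Yap HET cells, and the groups overlapped. Its log2 change of 0.05 had a 95% interval from -0.08 to 0.17, and that of Chek1 from -0.51 to -0.29. Atm, the kinase that responds to double-strand breaks, read 240, 227 and 228 in Yap KO cells, against 234, 265 and 244 in Yap HET cells, with overlap (log2 change -0.09 ± 0.06, limma adjusted p = 0.36). Chek2, the target of ATM, was the dimmest member at a mean intensity of 115 over the 6 arrays. It read 124, 94.1 and 114 in Yap KO cells, against 119, 122 and 116 in Yap HET cells, and its spread within a group was the largest among the members.

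Topbp1 and Atrip encode proteins that recruit and activate ATR. Topbp1, the brightest member, read 905, 832 and 833 in Yap KO cells, against 958, 981 and 956 in Yap HET cells. The groups did not overlap, and the log2 change of -0.17 ± 0.05 missed the threshold (limma adjusted p = 0.085). Atrip read 252, 236 and 233 in Yap KO cells, against 253, 250 and 252 in Yap HET cells, with overlap (log2 change -0.07 ± 0.05, limma adjusted p = 0.43).

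**Figure D2:**
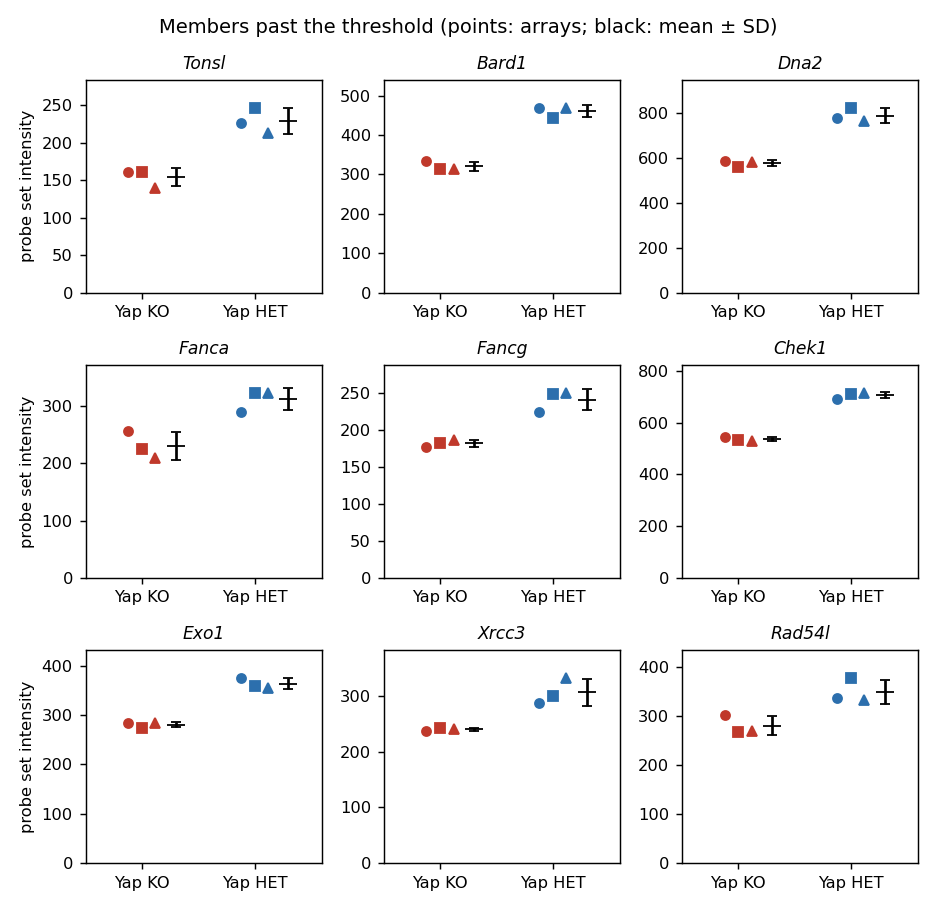
Probe set intensity (y axis, linear from 0) of the 9 members called lower, on the 3 Yap KO arrays (red) and the 3 Yap HET arrays (blue). Black marks are the mean ± SD of 3 arrays, and in each panel every Yap KO array lies below every Yap HET array.

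The roles were also set side by side. The median log2 change was -0.13 over the 8 core genes, -0.15 over the 5 measured strand exchange genes and -0.10 over the 4 checkpoint kinases. It was -0.17 over the 5 BRCA genes and partners, -0.18 over the 4 fork and junction genes and -0.03 over the 5 measured resection genes. With 8, 5 and 4 genes, the ranges of the core genes (-0.44 to 0.03), the strand exchange genes (-0.35 to 0.01) and the kinases (-0.40 to 0.05) covered nearly the same values. No difference between these roles was tested. Each role held genes called lower beside genes not called, except the FANCI-FANCD2 pair and the ATR activators, where 0 of 2 and 0 of 2 were called by limma and 0 and 1 were lower at an unadjusted p under 0.05.

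The arrays of a group did not weigh equally. The mean over the members, as log2 intensity minus the Yap HET mean, was -0.13, -0.21 and -0.20 on Yap KO replicates 1, 2 and 3, and -0.01, 0.05 and -0.04 on Yap HET replicates 1, 2 and 3. The same mean over all genes tested was 0.01, -0.01 and -0.02 on the Yap KO arrays and 0.00, 0.01 and -0.02 on the Yap HET arrays. Among the Yap KO arrays, the lowest value of a member was on replicate 1 for 4 members, on replicate 2 for 15 and on replicate 3 for 16. Leaving out any 1 array gave 6 to 9 members lower and 0 higher.

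**Figure D3:**
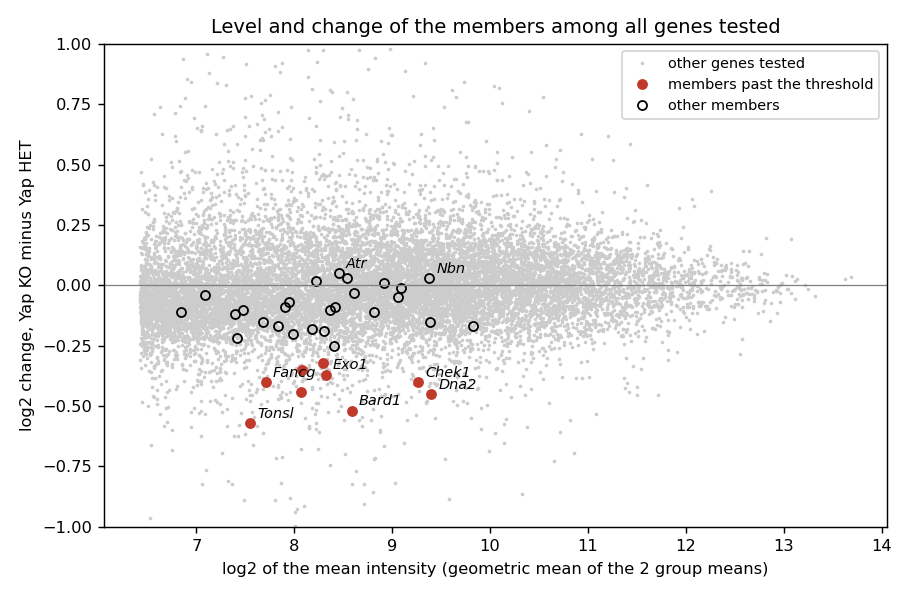
Log2 change, Yap KO minus Yap HET (y axis, drawn from -1 to 1, with genes beyond not shown), against the log2 mean intensity (x axis) for all genes tested in grey and the 35 members as circles. The 9 called members (filled red) lie at -0.32 or below, and the other members (open) at -0.25 or above. The median of the mean intensities was 316 over the members and 438 over all genes tested.

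Promoter sequences were compared because the members that changed did so in 1 direction. RefSeq promoters on GRCm38.p6, each 250 bases before to 50 bases after a transcript start, were at hand for 29 of the 35 members, 7 of the 9 called ones among them. A site for E2F factors, which switch on genes of S phase, was searched on both strands as TTTCCCGC, TTTCGCGC, TTTGCCGC or TTTGGCGC. It was found in 6 of 29 members (20.7%), against 489 of 10876 tested genes with a promoter (4.5%) and 704 of all 27025 genes in the table (2.6%). Of the 7 called members 2 had a match, and of the 22 others 4 had one. The core of the TEAD site, GGAATG, through which YAP acts, was found in 2 of 29 members (6.9%), neither of them called, against 14.5% of tested genes with a promoter. CCAAT, the site of the factor NF-Y, was found in 16 of 29 members (55.2%), against 42.3% of tested genes with a promoter. It was in 3 of the 7 called members (42.9%) and in 13 of the 22 others (59.1%). A gene with several starts, 2 of the 29 members and 19.8% of the tested genes, counted once if any of its windows matched. None of these motifs contains another, and a match is a run of letters, not evidence that a factor binds there. The lack of a match covers only these windows, and sites elsewhere were not searched.

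The 6 members with an E2F match are shown on the strand of the gene, 5′ to 3′, with the match in capitals, called members first. The matches began 209 bases before the start in Bard1 and 52 bases before it in Fancg, the pair called lower. They began 168, 129 and 152 bases before the start in Brca2, Topbp1 and Chek2, and 5 bases before it in Rad51c. Rad51c has several starts in the table, and its window at another start, not shown, held a further match beginning at base 12. In Fancg, Brca2, Topbp1 and Chek2 the gene record reaches further upstream than this start, so the match lies inside the record.
Bard1 (chr1:71103163-71103192, minus strand): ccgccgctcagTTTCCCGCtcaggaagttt
Fancg (chr4:43010335-43010364, minus strand): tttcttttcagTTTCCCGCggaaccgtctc
Brca2 (chr5:150522442-150522471, plus strand): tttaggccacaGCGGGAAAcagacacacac
Topbp1 (chr9:103305187-103305216, plus strand): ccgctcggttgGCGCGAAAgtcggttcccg
Chek2 (chr5:110839820-110839849, plus strand): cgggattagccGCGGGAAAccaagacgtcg
Rad51c (chr11:87404941-87404970, minus strand): cccccgcgaggGCGGGAAAagcaaggggtc

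A pair of called members without an E2F match is shown for contrast, again on the strand of the gene. In the stretch of Xrcc3 shown, the capitals mark CCAAT or its reverse complement, as a back-to-back pair and as a single copy nearer to the start. In Chek1 the whole window held 0 matches of the 3 motifs, which says only that these letters are not in it.
Xrcc3 (chr12:111813894-111814029, minus strand): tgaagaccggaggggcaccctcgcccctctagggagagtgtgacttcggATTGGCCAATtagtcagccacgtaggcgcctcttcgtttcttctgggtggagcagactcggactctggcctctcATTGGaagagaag
Chek1 (chr9:36726659-36726808, minus strand): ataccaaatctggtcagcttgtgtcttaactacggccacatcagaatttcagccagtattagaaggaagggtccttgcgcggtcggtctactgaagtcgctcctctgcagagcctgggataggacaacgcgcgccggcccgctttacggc

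Of 64 further genes of the same pathway, 60 had a probe set and were tested. By limma 8 of them were lower (13.3%, against 4.76% of all genes tested) and 0 higher, with 18 lower and 2 higher at an unadjusted p under 0.05, where all genes tested had 14.4% and 13.9%. The difference from the share of the members was not tested. The median log2 change of the 60 genes was -0.10. Faap100, a core complex subunit that partners FANCB and FANCL, read 378, 373 and 344 in Yap KO cells, against 449, 475 and 457 in Yap HET cells (log2 change -0.34 ± 0.06, limma adjusted p = 0.013). Ube2t, the enzyme that passes ubiquitin to FANCD2 through FANCL, read 229, 234 and 255 in Yap KO cells, against 305, 319 and 279 in Yap HET cells (log2 change -0.33 ± 0.07, limma adjusted p = 0.027). Both genes were without overlap. Under the 16 alternative settings given at the end, Faap100 was called in 16 and Ube2t in 10. The call on Ube2t was lost when Yap KO replicate 1, Yap KO replicate 2 or Yap HET replicate 1 was left out. It was also lost with no filter, median centring or the replicate number as a block.

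Of the 12 checkpoint genes beside the kinases, 4 were lower (33.3%, against 4.76% of all genes tested). Clspn, whose product Claspin presents CHEK1 to ATR, had 310 ± 13.8 in Yap KO cells and 370 ± 13.6 in Yap HET cells (log2 change -0.26 ± 0.06). Rad9a, a subunit of the clamp that brings TOPBP1 to ATR, had 324 ± 19.9 in Yap KO cells and 399 ± 20.8 in Yap HET cells (-0.30 ± 0.07). Timeless, a fork protection factor, had 193 ± 14.4 in Yap KO cells and 237 ± 8.24 in Yap HET cells (-0.30 ± 0.07), and Rpa2, a subunit of the single-strand binding protein, had 642 ± 7.86 in Yap KO cells and 756 ± 6.85 in Yap HET cells (-0.24 ± 0.05). The other falls were in Mdc1, a scaffold of break signalling (-0.27 ± 0.05), and Fignl1, an ATPase of homologous recombination (-0.28 ± 0.07). In these 6 genes the adjusted p of limma lay between 0.015 and 0.038. Their calls depended on the settings of the fit. Of 16 alternative settings, given at the end, Mdc1 was called in 11, Rpa2 in 10, Clspn in 9, Rad9a in 8 and Fignl1 in 6. Timeless was called in 8 of 15.

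Cenps and Cenpx, partners of FANCM, had log2 changes of -0.20 ± 0.05 and -0.21 ± 0.06, and Rad51b, of the same family as Rad51c, had -0.24 ± 0.07. Swi5, which acts in strand exchange, had the opposite sign, with 685 ± 36.2 in Yap KO cells and 586 ± 38.9 in Yap HET cells (log2 change 0.23 ± 0.07). None of these 4 genes passed the test (limma adjusted p = 0.059 to 0.075). Of the pathway genes, 1 was lower when Yap KO replicate 2 or Yap HET replicate 1 was left out, 3 when Yap KO replicate 3 was, and 5 when Yap HET replicate 2 or 3 was. Faap100 was called whichever single array was left out.

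Other repair pathways were set beside these. Of 38 tested genes of end joining, mismatch repair and excision repair, limma called 2 lower and 0 higher. The share of 5.26% lower is close to the 4.76% of all genes tested. At an unadjusted p under 0.05, 5 were lower and 2 higher, where all genes tested had 14.4% and 13.9%. The median log2 change was -0.05. The called genes were the base excision glycosylase genes Ung, which removes uracil, with 339 ± 15.0 in Yap KO cells and 428 ± 14.7 in Yap HET cells (-0.33 ± 0.06, limma adjusted p = 0.012), and Mutyh, with 175 ± 14.8 in Yap KO cells and 228 ± 17.4 in Yap HET cells (-0.38 ± 0.08, limma adjusted p = 0.027). The excision repair genes Neil3 and Xrcc1 had log2 changes of -0.23 ± 0.08 and -0.17 ± 0.06, and Polb, a repair polymerase, and Xrcc4, of end joining, had 0.17 ± 0.06 and 0.15 ± 0.06, none of them called. Both calls were lost when Yap KO replicate 2 was left out, and that on Mutyh also when Yap KO replicate 3, Yap HET replicate 1 or Yap HET replicate 3 was.

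Of 20 listed targets of p53, which DNA damage activates, 18 had a probe set and 17 were tested. Cdkn1a and Bax were not analysed here, so the counts do not cover them. By limma 0 of the 17 were called in either direction. At an unadjusted p under 0.05, 2 were lower and 3 higher, where all genes tested had 14.4% and 13.9%. The median log2 change of these targets was 0.05. Those with the smallest p were Btg2 (-0.21 ± 0.05), Zmat3 (0.27 ± 0.08), Trp53inp1 (0.18 ± 0.06) and Eda2r (0.14 ± 0.05). Their limma adjusted p-values were 0.051 to 0.090.

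**Figure D4:**
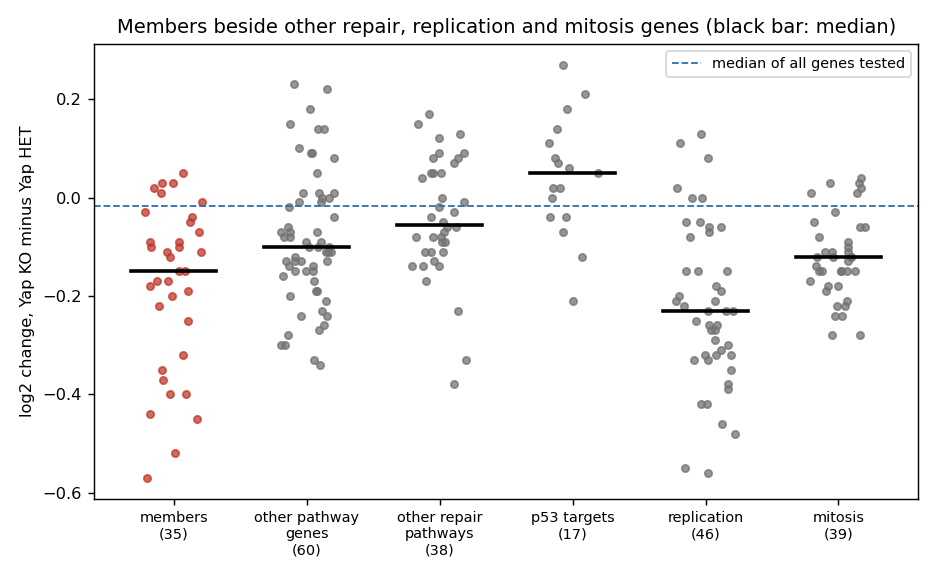
Log2 change, Yap KO minus Yap HET (y axis), of each tested gene in 6 lists, with the number of genes in brackets. Black bars are list medians and the dashed line is the median of all genes tested. The members (red, median -0.15) lie between the replication genes (-0.23) and the mitosis genes (-0.12).

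Replication and mitosis genes were set beside the members too. Of 46 replication genes 22 were lower and 0 higher (limma, with 33 and 0 at an unadjusted p under 0.05), with a median log2 change of -0.23. That is 47.8% lower, against 4.76% of all genes tested, or 14.4% of them at the unadjusted cut-off. Cdt1, a licensing factor (-0.55 ± 0.05), Mcm10, an initiation factor (-0.48 ± 0.05), and Mcm5, a helicase subunit (-0.42 ± 0.05), had the smallest p. Of 39 mitosis genes 5 were lower and 0 higher (limma, with 14 and 0 at an unadjusted p under 0.05), or 12.8% lower against the same 4.76%, with a median of -0.12. The smallest p belonged to Ect2 (-0.28 ± 0.06), Aurkb (-0.22 ± 0.05) and Spc24 (-0.28 ± 0.06). Of the replication genes, 8 were lower when Yap HET replicate 1 was left out and 11 when the second or the third Yap KO array was. Of the mitosis genes, 0 were lower when any of those 3 arrays was left out, and 1 when Yap HET replicate 2 or 3 was. Their part in the fall of the repair genes was not tested.

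Markers of other cell types also differed, where 5.16% of all genes tested were called higher and 4.76% lower. The summed intensity of 7 endothelial markers was 1373 to 1474 on the Yap KO arrays and 1046 to 1135 on the Yap HET arrays, with 2 of 6 tested markers higher. That of 8 mesenchymal markers was 5859 to 7784 on the Yap KO arrays and 4909 to 5075 on the Yap HET arrays, with 3 of 8 higher. For 6 epicardial markers it was 2076 to 3310 on the Yap KO arrays and 3042 to 3729 on the Yap HET arrays, with 1 of 6 higher. That marker was Tcf21 (log2 change 0.93). The others, not called, were Upk3b (-0.68), Upk1b (-0.45), Tbx18 (-0.37), Aldh1a2 (-0.13) and Wt1 (0.04). For 6 leukocyte markers the sum was 655 to 872 on the Yap KO arrays and 943 to 1019 on the Yap HET arrays. The 4 blood markers summed to 314 to 2265 on the Yap KO arrays and 202 to 554 on the Yap HET arrays. Smooth muscle markers, 4 in number, summed to 12388 to 13980 on the Yap KO arrays and 13719 to 14251 on the Yap HET arrays, and 3 neural markers to 590 to 643 on the Yap KO arrays and 584 to 672 on the Yap HET arrays. The 13 cardiomyocyte markers summed to 87348 to 89671 on the Yap KO arrays and 89095 to 90170 on the Yap HET arrays. The part of these cells in the changes of the members was not tested.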

How the data were processed

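The intensities deposited by the authors are probe set values on a linear scale, from 2e-05 to 15701 over 35556 probe sets. RMA was the tool, per the submitters' processing notes, with no version given. RMA gives log2 values, and no source states why the deposited scale is linear, so log2 was taken here. The platform annotation gave 1 symbol to 21789 probe sets, several to 1621 and none to 12146. A RefSeq table of GRCm38.p6 matched 21698 of the first by Entrez identifier and supplied the current symbols. The probe set with the highest mean stood for each gene, and a gene needed a mean above 85.7, the 40th percentile over probe sets, to be tested. The 13632 genes were fitted with limma 3.58.1 (lmFit, eBayes; R 4.3.3), with group as the only term. The 95% intervals use limma's moderated SE. Tested on simulated data with 13632 genes, the fit recovered 20% of changes of 0.25 and 100% of changes of 0.5 on the log2 scale. Of its 173 calls, 13 were false. The simulated noise was independent and normal, with fewer genes changed than the 649 called lower and 704 called higher in the data. These shares therefore need not hold for the data.

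The members, lists, tests and alternatives were chosen with earlier results of these data known. Every member was named. In the pathway, other repair and p53 lists, called genes and the 4 others with the smallest p were named, and in the replication and mitosis lists the 3 with the smallest p. Replicate numbers were not used to pair the arrays in the main fit. Deviations from the group means correlated at -0.08, -0.17 and 0.12 for replicates 1, 2 and 3. Across unlike replicate numbers they correlated at -0.23 to 0.28. With 3 arrays a group, these values cannot exclude a pairing.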

Additional observations from a re-analysis of the deposited data

How the results depend on the processing

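The alternatives were other filters on dim probe sets, averaging all probe sets per gene, other scalings, other variance settings, a pseudocount of 16, the replicate number as a block, and each array left out. Over these 16, 0 members were called higher and 6 to 18 lower. The count of 9 lower became 18 with array weights, which gave Yap HET replicate 1 a weight of 7.60 against 0.43 to 1.35 for the other arrays, 7 with the replicate block, which ended the calls on Fanca (adjusted p = 0.057) and Rad54l (0.078), and 6 to 9 without single arrays. Bard1, Fancg, Exo1, Dna2, Tonsl and Chek1 were called under every alternative that tested them. The median of the members was -0.09 with median centring and -0.18 to -0.12 without single arrays. Median centring also moved the median of all genes tested upward, from -0.02 to 0.04. For the other lists the same alternatives were chosen after seeing the data. The 8 other pathway genes lower became 1 with no filter or median centring, 26 with array weights, 2 with the replicate block and 1 to 7 without single arrays, and the 0 higher became 1 with the stricter filter or median centring, 2 with the trended prior or array weights, and 0 to 1 without single arrays. The 2 genes of other repair pathways lower became 1 with no filter, the stricter filter or the block, 5 with array weights and 0 to 2 without single arrays, and 1 was higher with array weights. For p53 targets, 1 was lower with the stricter filter, quantile normalization, cyclic loess, the trended prior or the pseudocount and 2 with array weights. Higher were 1 with the stricter filter or median centring and 2 with quantile normalization, cyclic loess, the trended prior or array weights. The 22 replication genes lower became 11 with no filter, 12 with median centring or the block, and 8 to 18 without single arrays, but 28 with quantile normalization or cyclic loess, 30 with the stricter filter, 31 with the trended prior and 33 with array weights, and 1 was higher with array weights. The 5 mitosis genes lower became 0 with no filter, median centring or the block, 8 with the stricter filter, 9 with the trended prior, 26 with array weights and 0 to 4 without single arrays. The share of all genes called under each alternative is not given here. A shift in the count of a list therefore cannot be told from a shift in calls over all genes. The same holds for the counts given above with single arrays left out. The cause of these shifts was not tested. No call changed direction. No detection call was at hand, so dim members such as Chek2 cannot be told from background.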
